A study of Mus musculus with 24 samples.

Results

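6 genes of the hydroxysteroid dehydrogenase family, Hsd17b11, Hsd17b13, Hsd17b12, Hsd17b10, Hsd17b2 and Hsd17b6, were followed through the livers of mice fed fats of different kinds, as 6 of the 18820 genes that the array measured with a probe set of their own. They are listed members of the family, without Hsd17b7 of cholesterol synthesis and Hsd17b4 of the peroxisome, and each was read by 1 probe set. Hsd17b11 was chosen with its levels by diet known, so its levels are described here without a test.

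Liver RNA came from 24 male C57Bl/6 mice of 4 to 6 months that were randomised to 3 diets of 8 mice and fed for 7 weeks. The Trans diet drew its fat from partially hydrogenated soy oil, the Cis diet from canola and palm olein oil, and the Saturated diet, against which both were set, from cocoa butter. All groups received 45 energy percent as fat, and there was no low-fat group. Each liver was measured on its own Affymetrix Mouse Gene 1.1 ST array, which reads the RNA of many genes with short probes, and values are given as log2 signal, on which a difference of 1 is a doubling.

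The enzymes of this family use a nicotinamide cofactor to turn hydroxyl groups into keto groups or back, on sex steroids and also on retinoids, bile acids and fatty acyl chains. Depending on the member and the substrate they inactivate or regenerate oestrogens and androgens, while others carry out steps of fat and amino acid metabolism despite their shared name. Hsd17b11 and Hsd17b13 are close relatives whose proteins sit on the surface of lipid droplets, the organelles in which hepatocytes store triglycerides.

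The genes for these 2 lipid droplet enzymes lie next to each other on chromosome 5 with 0 annotated genes between them, and the 250 bases upstream of each start site are shown because the pair are neighbours as well as close relatives. Both are taken from RefSeq on the build GRCm38.p6, are read on the minus strand from 5′ to 3′, and span chr5:104021797-104022046 for Hsd17b11 and chr5:103977389-103977638 for Hsd17b13. Capitals mark a match on either strand to one of the motifs searched, namely the CCAAT box, the GC box (GGGCGG), the TATA box (TATAAA), a nuclear receptor core site (AGGTCA), the E box (CACGTG) and a direct repeat of that core site with 1 base between, which overlaps the core site.
Hsd17b11: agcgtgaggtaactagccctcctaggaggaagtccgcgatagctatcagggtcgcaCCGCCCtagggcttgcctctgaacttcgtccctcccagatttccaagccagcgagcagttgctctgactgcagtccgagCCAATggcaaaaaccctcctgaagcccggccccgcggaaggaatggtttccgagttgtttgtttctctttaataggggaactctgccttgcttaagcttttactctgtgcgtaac
Hsd17b13: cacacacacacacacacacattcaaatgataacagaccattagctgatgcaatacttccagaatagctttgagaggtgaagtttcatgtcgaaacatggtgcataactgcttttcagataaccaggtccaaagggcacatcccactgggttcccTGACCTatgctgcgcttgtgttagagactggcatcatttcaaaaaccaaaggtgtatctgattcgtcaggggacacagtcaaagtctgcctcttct
The Hsd17b11 window held CCGCCC at -194 and CCAAT at -115, counted from the start site to the first base of the match as printed, and the Hsd17b13 window held TGACCT, the other strand of AGGTCA, at -96. Among 32851 mouse promoter windows of this length, 33.8% held the CCAAT box, 32.7% the GC box and 14% the core site, so each match is a common one. Neither window held the direct repeat with 1 base between, which was found in 0.0335% of all windows. The Hsd17b11 window was 54.8% G or C with 13 CpG pairs and that of Hsd17b13 44.8% with 3, against medians of 52.4% and 6 over all windows. Of the 6 genes, 5 had a window, and that of Hsd17b2 was not analysed here.

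Over the whole array, limma called few differences at an adjusted p under 0.05. In Trans against Saturated 3 of 35556 probe sets passed, or 0.00844%, and in Trans against Cis 1 passed, or 0.00281%, with no gene listed for it. In Cis against Saturated 0 passed (0%), beside 2337 at an unadjusted p under 0.05. The 3 probe sets of the first comparison were those of Krt23, Urad and Pla2g6, named after their values were seen. None belonged to the 5 dehydrogenases that were tested, which leaves out Hsd17b11. Arrays correlated with the others at medians of 0.975 to 0.986, lowest in Trans replicate 4.

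Hsd17b11, which oxidises the hydroxyl group of androstane-type steroids, had its highest levels on the Trans diet, intermediate levels on the Cis diet and its lowest on the Saturated diet. In Trans livers its log2 signal ran from 9.25 through a median of 9.44 to 9.64. In Cis livers the lowest, median and highest values were 9.0, 9.21 and 9.34, and in Saturated livers they were 8.83, 8.96 and 9.33. Neighbouring diets in this order overlapped, and Trans and Saturated overlapped only through Saturated replicate 2, since the other 7 Saturated livers lay below the lowest Trans liver.

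The mean level of Hsd17b11 was 9.41 ± 0.13 in Trans livers, 9.19 ± 0.12 in Cis livers and 9.01 ± 0.16 in Saturated livers (SD, n = 8 each). Trans stood above Saturated by 0.41 ± 0.07 on the log2 scale (SE), which is 1.32-fold, and the mean of the Saturated diet was exceeded by 8 of 8 Trans livers, its highest liver by 5. Cis stood above Saturated by 0.18 ± 0.07, or 1.14-fold, and 7 of 8 Cis livers exceeded the mean of the Saturated diet. Trans stood above Cis by 0.22 ± 0.07, or 1.17-fold, with 8 of 8 livers above the Cis mean and 5 above the highest Cis liver. The comparisons with Saturated share the same 8 livers.

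Saturated replicate 2 carried the highest Hsd17b11 level of its group. Without that liver the 7 remaining Saturated livers ran from 8.83 to 9.16 around a mean of 8.96, all below the 8 Trans livers, and the Trans difference was 0.45 or 1.37-fold. This choice of liver was made after the values were seen, and 0.112% of all genes showed no overlap in that direction with the same liver left out. The liver was picked from the levels of Hsd17b11 and not anew for each gene. This share therefore does not measure how unusual Hsd17b11 is. Across the 24 livers Hsd17b11 spanned 1.74-fold.

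**Figure D1:**
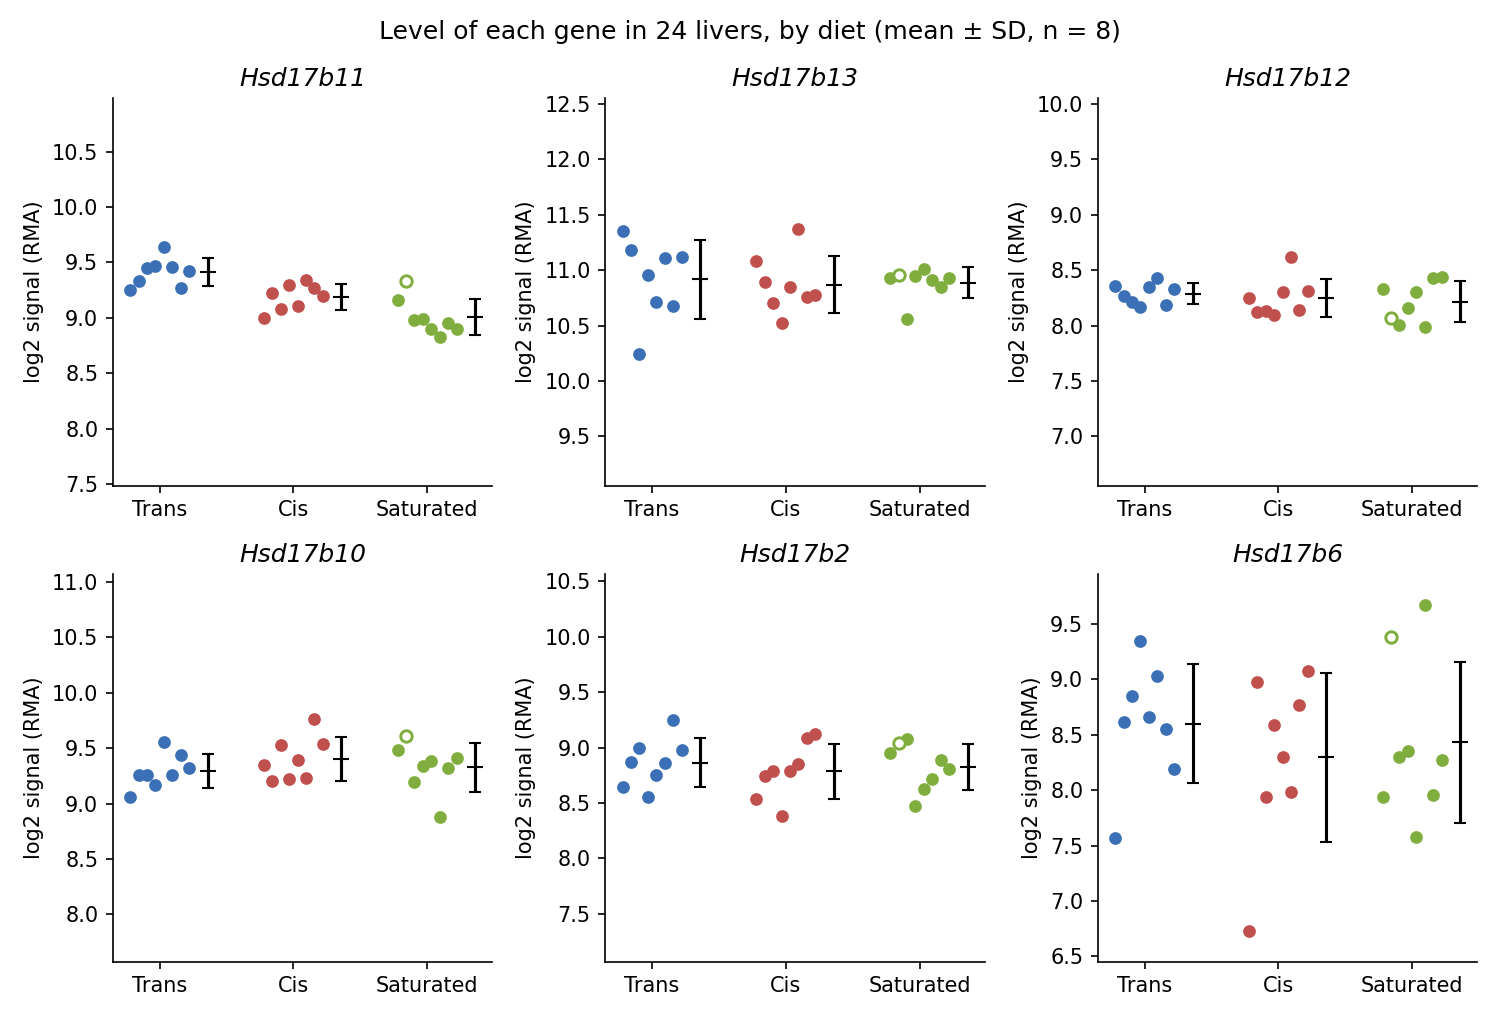
Log2 signal of each of the 6 genes (vertical axes, each spanning the same number of log2 units but centred on its own gene) in 24 livers by diet, with points for livers, the open symbol for Saturated replicate 2 and bars for mean ± SD over 8 livers. The mean of Hsd17b11 steps down through Trans, Cis and Saturated at 9.41, 9.19 and 9.01, with some overlap of livers between all diets. The diets of the other 5 genes overlap throughout, and the spread is widest for Hsd17b6.

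Its chromosomal neighbour Hsd17b13, a liver-enriched protein whose human counterpart acts on retinol and is known from the genetics of fatty liver disease, did not share this order. Its values ran from 10.24 through a median of 11.04 to 11.35 in Trans livers, from 10.52 through 10.81 to 11.37 in Cis livers and from 10.56 through 10.93 to 11.01 in Saturated livers. The groups overlapped throughout, and Trans livers lay both above and below the Saturated range. The means were 10.92 ± 0.36 in Trans livers, 10.87 ± 0.26 in Cis livers and 10.89 ± 0.14 in Saturated livers (SD, n = 8 each). Trans differed from Saturated by 0.03 with a 95% interval of -0.23 to 0.30 (limma, adjusted p = 0.979), Cis from Saturated by -0.02 with an interval of -0.28 to 0.25 (adjusted p = 0.991), and Trans from Cis by 0.05 with an interval of -0.22 to 0.32 (adjusted p = 0.979).

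Hsd17b12, the ketoacyl-CoA reductase of the endoplasmic reticulum that serves each round of fatty acid elongation, was not called in any comparison. Its lowest, median and highest values were 8.17, 8.30 and 8.43 in Trans livers, 8.10, 8.19 and 8.62 in Cis livers and 7.99, 8.23 and 8.44 in Saturated livers. Every Trans liver lay within the Saturated range. The mean of Trans exceeded that of Saturated by 0.07 (95% interval -0.09 to 0.24, limma adjusted p = 0.906) and that of Cis by 0.04 (-0.12 to 0.21, adjusted p = 0.967), while Cis exceeded Saturated by 0.03 (-0.13 to 0.20, adjusted p = 0.967).

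Hsd17b10 is the mitochondrial member, which acts in the breakdown of isoleucine and is also a subunit of the RNase P that cuts mitochondrial transfer RNAs. It ran from 9.06 through a median of 9.26 to 9.56 in Trans livers, from 9.20 through 9.37 to 9.76 in Cis livers and from 8.88 through 9.36 to 9.61 in Saturated livers, again with overlap of all groups. The Trans mean was 9.29 ± 0.15, the Cis mean 9.40 ± 0.20 and the Saturated mean 9.33 ± 0.22 (SD, n = 8 each). The difference of Trans from Cis, -0.11 with an interval of -0.31 to 0.09, did not pass (limma, adjusted p = 0.895), and those from Saturated were -0.03 for Trans (-0.23 to 0.16, adjusted p = 0.969) and 0.07 for Cis (-0.12 to 0.27, adjusted p = 0.923).

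The 2 members that act directly on sex steroids in many tissues were also not called. Hsd17b2, which inactivates oestradiol and testosterone by oxidation, had lowest, median and highest values of 8.55, 8.86 and 9.25 in Trans livers, 8.38, 8.79 and 9.12 in Cis livers and 8.47, 8.85 and 9.08 in Saturated livers. Its difference was 0.04 in Trans against Saturated (95% interval -0.19 to 0.27, limma adjusted p = 0.973), -0.04 in Cis against Saturated (-0.27 to 0.20, adjusted p = 0.974) and 0.07 in Trans against Cis (-0.16 to 0.31, adjusted p = 0.955). The medians of the diets thus lay closer together than the livers of any one diet.

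Hsd17b6 oxidises androstanediol back to the androgen dihydrotestosterone and can also act on retinol, and it was by far the most variable of the 6. Its log2 signal ran from 7.57 through a median of 8.64 to 9.35 in Trans livers, from 6.73 through 8.45 to 9.08 in Cis livers and from 7.58 through 8.28 to 9.67 in Saturated livers. Single livers thus differed 3.44-fold within Trans, 5.1-fold within Cis and 4.25-fold within Saturated. Against this spread the difference of Trans from Saturated was 0.17 with an interval of -0.50 to 0.84 (limma, adjusted p = 0.956), that of Cis from Saturated -0.13 with an interval of -0.80 to 0.53 (adjusted p = 0.963) and that of Trans from Cis 0.31 with an interval of -0.36 to 0.97 (adjusted p = 0.926). The interval of Trans against Saturated for Hsd17b6 thus included a change the size of that of Hsd17b11, 0.41. Whether limma would have called a change of that size in any of the tested genes was not tested.

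Limma thus called 0 of the 5 genes other than Hsd17b11 in each comparison, and 0 of 5 reached an unadjusted p under 0.05, where the lowest was 0.372 in Trans against Saturated, 0.442 in Cis against Saturated and 0.263 in Trans against Cis. Over all 18820 genes, 4.55% reached an unadjusted p under 0.05 with a higher mean and 3.78% with a lower mean in Trans against Saturated. The shares were 3.47% higher and 3.42% lower in Cis against Saturated, and 3.5% and 2.99% in Trans against Cis. The count of 0 among so few genes is near what these shares give. Whether Hsd17b11 differed from its relatives in its response to diet was not tested.

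**Figure D2:**
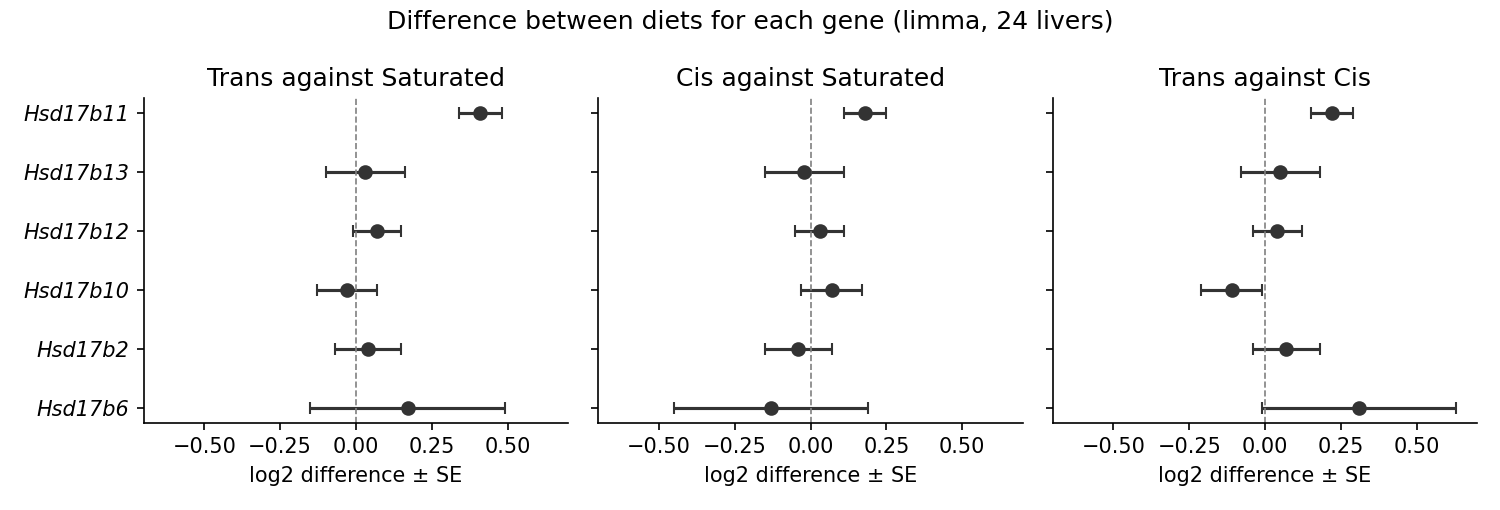
Difference in log2 signal between diets (horizontal axis) for each of the 6 genes, as estimate ± SE from limma over 24 livers, with 1 panel for each comparison and a dashed line at no difference. Hsd17b11 lies at 0.41, 0.18 and 0.22 in the 3 panels, and Hsd17b6 has the widest errors, with an SE of 0.32.

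The genes also differed in how far livers of the same diet spread. Hsd17b11 was among the steadier genes, with an SD within diets of 0.14 on the log2 scale, below which lay 26.4% of the 8349 genes with a mean signal over 20. Hsd17b12 had an SD of 0.16 (38.3% of genes lower), Hsd17b10 of 0.19 (59%) and Hsd17b2 of 0.23 (74.9%). Hsd17b13 had an SD of 0.27 (84.2%) and Hsd17b6 of 0.68, which was larger than that of 99.1% of genes and compares with a median over genes of 0.17. Over all 24 livers Hsd17b6 spanned 7.67-fold and Hsd17b13 2.19-fold.

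Pairs of the 6 genes were then compared from liver to liver after each diet's mean was removed, with permutation tests of 100000 shuffles within diets (two-sided, adjusted over 15 pairs). The neighbours Hsd17b11 and Hsd17b13 showed no relation that the test could detect, with r = -0.12 (permutation p = 0.575, adjusted p = 0.784) and rho = -0.11 (p = 0.617), and r = -0.05 without the 2 livers farthest from the median of Hsd17b11. Here and below, such end livers were picked over all diets, before diet means were removed. Of the 15 pairs, 9 had an r above 0 and 6 below it, 3 reached an unadjusted p under 0.05 and 0 passed after adjustment.

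The largest of these was Hsd17b13 with Hsd17b12, at r = 0.52 (permutation p = 0.00362, adjusted p = 0.0543) and rho = 0.45 (p = 0.0171), with r of 0.51 within Trans, 0.83 within Cis and 0.37 within Saturated. It was 0.36 (permutation p = 0.0696) without the 2 livers at the ends. Hsd17b10 and Hsd17b2 gave r = 0.47 (permutation p = 0.0268, adjusted p = 0.189) and Hsd17b12 and Hsd17b6 gave r = -0.45 (permutation p = 0.0495, adjusted p = 0.189), and without 2 end livers these were 0.42 and -0.36. Hsd17b11 with Hsd17b6 gave r = 0.41 (permutation p = 0.0622, adjusted p = 0.189), with 0.53 within Trans, 0.62 within Cis and 0.19 within Saturated, and r = 0.66 without the 2 livers at the ends of Hsd17b11. That removal brought the pair past the threshold (adjusted p = 0.0264), so the relation depended on which livers were kept.

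**Figure D3:**
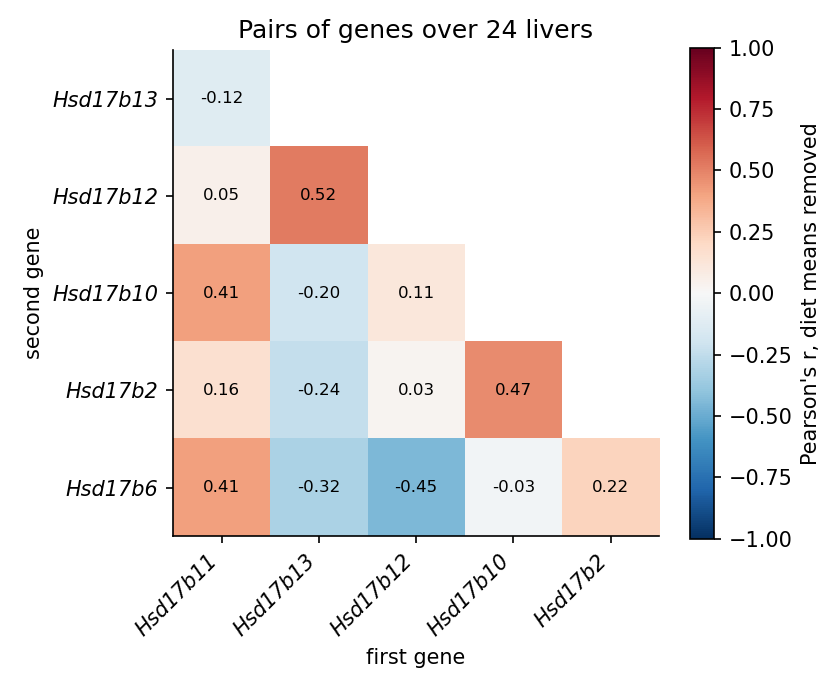
Pearson correlation (colour and printed value) between each pair of the 6 genes over 24 livers after the mean of each diet was removed. The values run from -0.45 for Hsd17b12 with Hsd17b6 to 0.52 for Hsd17b13 with Hsd17b12, and Hsd17b11 with Hsd17b13 stands at -0.12.

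The 8348 other genes with a mean signal over 20 were ranked by their correlation with Hsd17b11, which is a description of these 24 arrays and carries no p because the genes were chosen for it. Over all livers, diet differences included, the 5 most similar were the keratin Krt23 (r = 0.84), the mitochondrial ATPase Vwa8 (0.75), the peroxisomal protease Lonp2 (0.75), the membrane progestin receptor Paqr7 (0.74) and Creb3l3 (0.74), a membrane-bound transcription factor of liver that acts in lipid metabolism. Krt23, whose mean signal of 20.6 lay just over the minimum of 20, had median levels of 5.17 in Trans livers, 4.02 in Cis livers and 3.18 in Saturated livers. It passed that minimum through the Trans livers, since its Cis and Saturated medians lay below it. Saturated replicate 2 was the highest Saturated liver for both Hsd17b11 and Krt23, at 4.77 for Krt23. Within single diets the likeness of Krt23 was lower, with r of 0.22 in Trans, 0.39 in Cis and 0.75 in Saturated.

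With diet means removed, the 5 genes nearest to Hsd17b11 were Sugct, which handles glutarate in mitochondria, Creb3l3 (both r = 0.64), the iodotyrosine deiodinase Iyd (0.62), Lonp2 and the myosin Myo18b (both 0.60). Creb3l3 and Lonp2 were thus in both rankings. For Creb3l3 the correlation was 0.55 within Trans, 0.64 within Cis and 0.68 within Saturated, and 0.74 without the 2 livers at the ends of Hsd17b11. Those end livers were Trans replicate 5 and Saturated replicate 6, so Saturated replicate 2 was kept. For Lonp2 the correlation was 0.30, 0.39 and 0.90 in the same order of diets. Saturated replicate 2 was again the highest Saturated liver for Sugct, Creb3l3, Iyd, Lonp2 and Myo18b. With 1 liver left out, the lowest r was 0.45 for Sugct, 0.49 for Creb3l3, 0.49 for Iyd, 0.45 for Lonp2 and 0.54 for Myo18b.

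The same ranking was made for Hsd17b13. After removal of diet means its 5 nearest genes were Mt2 and Mt1, which bind zinc and copper (both r = 0.89), the haemoglobin-binding acute phase protein Hp (0.85), the interferon gamma receptor chain Ifngr2 (0.84) and Cln6 of the endoplasmic reticulum (0.84). For Mt2 the correlation was 0.96 within Trans, 0.86 within Cis and 0.77 within Saturated, and 0.81 without the 2 livers at the ends of Hsd17b13. Trans replicate 3, the liver lowest in Hsd17b13 at 10.24, was also the lowest Trans liver for Mt2 (5.07, against a Trans median of 7.32), for Mt1 and for Hp. Cis replicate 6, the highest Cis liver at 11.37, was the highest there for Mt2 (7.84, against a Cis median of 5.65), Mt1 and Hp. Saturated replicate 3, lowest of its group in Hsd17b13, was lowest there for Mt2 (4.59) and Mt1, whereas Hp was lowest in Saturated replicate 8. The opposite ends coincided less. Hsd17b13 and Hp were both highest in Trans replicate 1 and in Saturated replicate 5. Among Trans livers Mt2 was highest in replicate 2 and Mt1 in replicate 8, and among Saturated livers both were highest in replicate 2. Among Cis livers Hsd17b13 was lowest in replicate 4, Mt2 and Mt1 in replicate 8 and Hp in replicate 7.

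At the other end of the same ranking stood Kyat1, which makes kynurenic acid (r = -0.84), the drug-metabolising enzyme Cyp1a2 (-0.80) and Aspdh (-0.79). Trans replicate 3 was the highest Trans liver for Kyat1 at 8.43 and for Cyp1a2 at 10.58, and Saturated replicate 3 was the highest Saturated liver for both. Over all 24 livers, with diet differences left in, Mt1, Hp and Mt2 were again among the 5 genes nearest to Hsd17b13, at r = 0.81, 0.81 and 0.80.

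Hsd17b6 was ranked in the same way after its spread had been seen. With diet means removed its nearest genes were Etnppl, which breaks down phosphoethanolamine (r = 0.86), and then Amdhd1 (0.83) and Hal (0.79), which both act in the breakdown of histidine. For Amdhd1 the correlation was 0.70 within Trans, 0.93 within Cis and 0.80 within Saturated, and 0.75 without the 2 livers at the ends of Hsd17b6. Cis replicate 1, the lowest of all 24 livers for Hsd17b6 at 6.73, was the lowest Cis liver for Etnppl (7.55), Amdhd1 (8.45) and Hal (8.76), and Trans replicate 1 was the lowest Trans liver for Hsd17b6 and for these 3 genes. The most opposed gene was the vitamin C transporter Slc23a1 (r = -0.77), for which both of these livers were the highest of their diets, at 9.25 in Cis replicate 1 and 9.10 in Trans replicate 1. The low end of Hsd17b6 was not shared in this way among Saturated livers. There Hsd17b6 was lowest in replicate 5, Etnppl in replicate 1, Amdhd1 in replicate 4 and Hal in replicate 7. Slc23a1 was highest there in replicate 8. At the high end, Saturated replicate 6 was the highest Saturated liver for Hsd17b6 (9.67) and Etnppl (9.10) and the lowest for Slc23a1 (8.37). Amdhd1 and Hal were highest in Saturated replicate 2. Within Saturated the r with Hsd17b6 was 0.89 for both Etnppl and Hal.

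**Figure D4:**
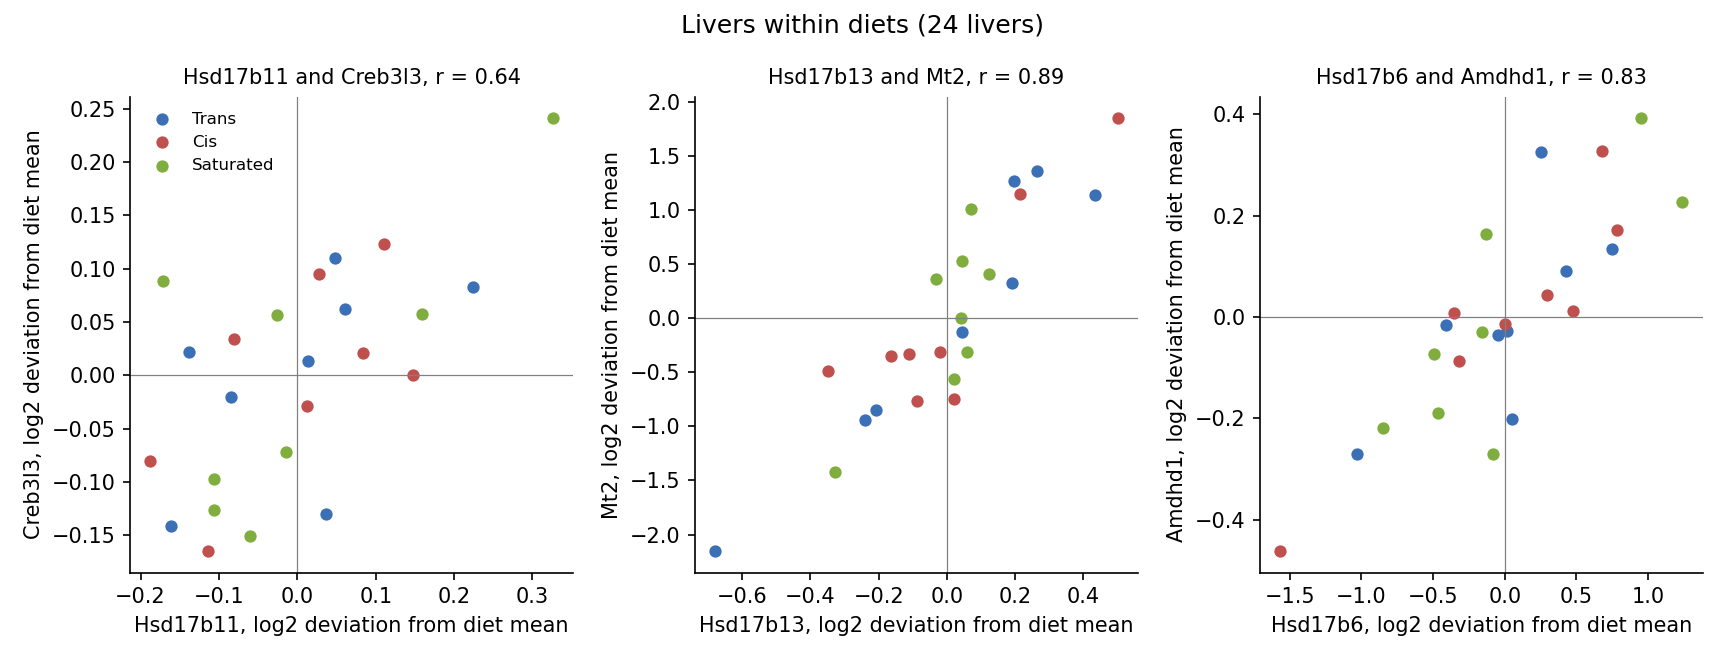
Deviation from the diet mean in log2 signal of a dehydrogenase (horizontal axes) and of a gene ranked near it (vertical axes) in 24 livers coloured by diet. The points follow a line from low to high with r = 0.64 for Hsd17b11 and Creb3l3, 0.89 for Hsd17b13 and Mt2 and 0.83 for Hsd17b6 and Amdhd1, and livers of all 3 diets lie along each.

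Genes that work beside the 6 enzymes were counted from lists, and limma called 0 genes of any of these lists in any comparison. Among 7 other family members in Trans against Saturated, 5 had a higher mean, with a median log2 difference of 0.11 beside 0.00 over all genes. Only 3 of these 7 had a mean signal over 20, so the median rests in part on weakly detected genes. Hsd17b7, of cholesterol synthesis, differed by -0.64 ± 0.17 (SE, adjusted p = 0.322) and Hsd17b4, of peroxisomal fatty acid breakdown, by 0.16 ± 0.06 (adjusted p = 0.573). Hsd17b14, with a mean signal of only 4.77, differed by 0.25 ± 0.09 (adjusted p = 0.545). Of 22 measured genes listed for proteins of lipid droplets and their formation, 13 averaged higher in Trans than in Saturated livers (median 0.03). An unadjusted p under 0.05 was reached by 3 that averaged higher and by 0 that averaged lower. Those 3 were Cidec, which fuses droplets (1.57 ± 0.37, adjusted p = 0.219), and the droplet coat genes Plin4 (0.78 ± 0.32, adjusted p = 0.622) and Plin2 (0.29 ± 0.12, adjusted p = 0.623). Pnpla3, another droplet gene of fatty liver genetics in humans, differed by -0.47 ± 0.48 (adjusted p = 0.9).

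Retinol dehydrogenases and Dhrs enzymes, the nearest relatives by chemistry, averaged higher in Trans than in Saturated livers for 15 of 23 genes (median 0.03), and an unadjusted p under 0.05 was reached by 2 in either direction. Dhrs4 differed by 0.25 ± 0.07 (adjusted p = 0.363), Rdh11 by -0.83 ± 0.26 (adjusted p = 0.437) and Rdh13 by -0.32 ± 0.11 (adjusted p = 0.541). Of 18 other genes of steroid hormone metabolism, 6 had a higher mean and 12 a lower one (median -0.07), with 0 at an unadjusted p under 0.05. The steroid dehydrogenase Hsd3b5 differed by -1.80 ± 0.96 (adjusted p = 0.712), Cyp17a1 by -0.71 ± 0.35 (adjusted p = 0.695) and Hsd11b1 by -0.12 ± 0.06 (adjusted p = 0.706), and Akr1c6, an aldo-keto reductase that interconverts sex steroids, differed by -0.09 ± 0.07 (adjusted p = 0.831). Of 5 genes for steroid receptors and the carrier of sex steroids, Esr1, the oestrogen receptor of liver, differed by -0.10 ± 0.12 (adjusted p = 0.913).

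Among the partners of Hsd17b12 and Hsd17b10, 0 genes reached an unadjusted p under 0.05 in Trans against Saturated. In the elongation list 6 of 12 genes averaged higher in Trans than in Saturated livers (median 0.01), and Tecr, which finishes the cycle that Hsd17b12 takes part in, differed by -0.10 ± 0.09 (adjusted p = 0.873), Hacd3 by 0.02 ± 0.06 (adjusted p = 0.965) and the elongase Elovl6 by -0.54 ± 0.31 (adjusted p = 0.743). In the list of mitochondrial RNase P and isoleucine breakdown 4 of 10 had a higher mean (median -0.04), and the RNase P partner Trmt10c differed by -0.08 ± 0.12 (adjusted p = 0.945), Acadsb by -0.09 ± 0.11 (adjusted p = 0.916) and Acat1 by 0.04 ± 0.04 (adjusted p = 0.912).

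Targets of PPAR alpha, the fatty acid receptor of hepatocytes, were counted from a list written with earlier results of these data known. Their part in the levels of Hsd17b11 was not tested. In Trans against Saturated 15 of 17 averaged higher (median 0.29), and an unadjusted p under 0.05 was reached by 10 in that direction and by 0 in the other. Over all genes the shares at that p were 4.55% higher and 3.78% lower. In Cis against Saturated 15 of 17 averaged higher (median 0.14, with 4 higher and 0 lower at that p, beside 3.47% and 3.42% of all genes). In Trans against Cis it was 13 of 17 (median 0.13, with 1 higher and 0 lower, beside 3.5% and 2.99%). Acaa1b, a peroxisomal thiolase, differed by 0.31 ± 0.07 in Trans against Saturated (adjusted p = 0.219), Vnn1 by 0.61 ± 0.15 (adjusted p = 0.254) and Mgll by 0.31 ± 0.08 (adjusted p = 0.319). Not every target followed the order of diets seen for Hsd17b11, since Mgll averaged highest on the Cis diet, at 0.45 in Cis against Saturated and -0.13 in Trans against Cis.

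**Figure D5:**
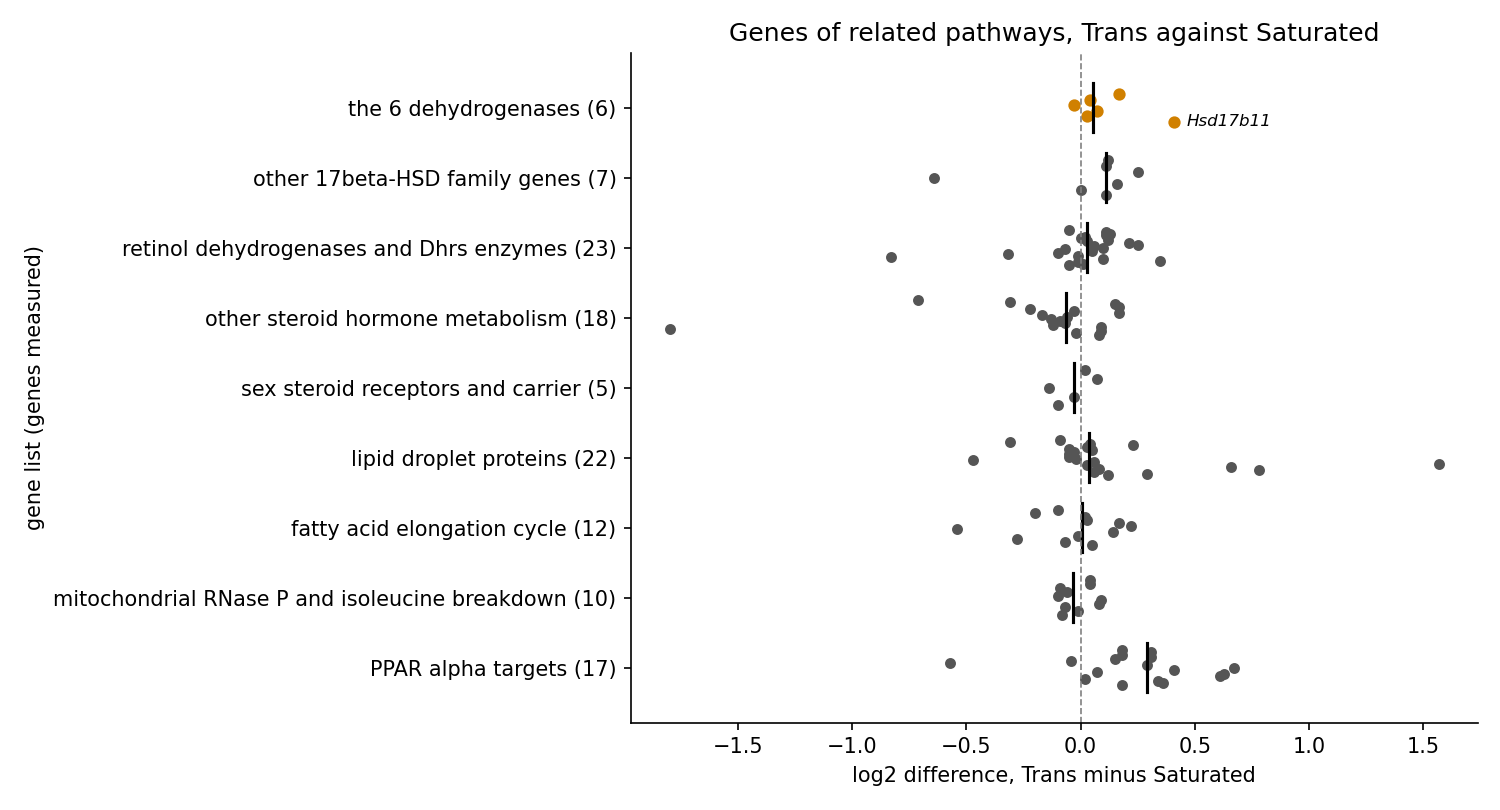
Difference in log2 signal of Trans from Saturated (horizontal axis) for the 6 dehydrogenases and for genes of related lists (rows, with the number measured), where a point is a gene and a bar the median of its list. Hsd17b11 lies at 0.41 while its 5 relatives lie between -0.03 and 0.17, and the medians of the lists run from -0.07 for steroid hormone metabolism to 0.29 for PPAR alpha targets.

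Because whole liver was measured, fewer cells of a type and less RNA per cell cannot be told apart. The defining hepatocyte markers were strongly detected on all diets, with a summed signal over 9 genes of 36500 to 40100 in Trans livers, 37700 to 39800 in Cis livers and 37600 to 42000 in Saturated livers. Of these, 8 of 9 averaged lower in Trans than in Saturated livers (median -0.04, 2 of them at an unadjusted p under 0.05). Markers of activated stellate cells and fibroblasts averaged higher in Trans livers, as Hsd17b11 did, in 7 of 7 genes against Saturated (median 0.46, 3 of them at an unadjusted p under 0.05). Their summed signal ran from 129 to 451, against 122 to 177 in Saturated livers. Markers of hepatic stellate cells went the other way, with 6 of 7 genes averaging lower (median -0.19, 2 of them at an unadjusted p under 0.05) and a summed signal of 595 to 755 in Trans livers and 714 to 880 in Saturated livers. Smooth muscle markers averaged higher in 5 of 5 genes (median 0.39, 3 of them at an unadjusted p under 0.05). Their summed signal was 43.8 to 95.6 in Trans livers and 39.6 to 55.4 in Saturated livers. These markers were weakly detected, since 0 of the 5 had a mean signal over 20. In Cis against Saturated the medians were 0.06 for the activated stellate cell list, -0.05 for the hepatic stellate cell list and 0.02 for the smooth muscle list, and their part in the levels of Hsd17b11 was not tested.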

How the data were processed

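The authors labelled liver RNA from 24 mice, hybridised 1 Affymetrix Mouse Gene 1.1 ST array a mouse and normalised the scans by RMA, and the deposited table holds log2 values for 35556 probe sets. RMA subtracts background, makes the distributions of arrays equal and combines probes, so shifts common to all genes are removed. Although the methods speak of probe sets assembled per Entrez gene, the table lists the original ones of the array, 12457 with no gene listed and 1881 with several. Symbols came from the platform's annotation, and a gene was read by its single-gene probe set of highest mean.

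Diets were compared with limma 3.58.1 in R 4.3.3 (lmFit, eBayes, 24 livers, 21 residual degrees of freedom, two-sided), adjusted after Benjamini and Hochberg over all probe sets, with a threshold of 0.05 and no filter on signal. The code was tested on simulated data. Each array is a separate mouse, and arrays have no read depth, so precision rests on their number. Members and lists were chosen with earlier results of these data known. Named from the lists were genes called in any comparison, up to 3 with the smallest p in Trans against Saturated, and fixed partners of the enzymes. From the rankings the 5 genes of highest correlation with Hsd17b11 and Hsd17b13 were named, and the most opposed genes and the ranking of Hsd17b6 were added after values were seen. Alternatives were other fits, filters and normalisations, Tukey's post hoc test of the methods, a replicate block and leaving out livers. List genes without a single-gene probe set were not analysed here.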

Additional observations from a re-analysis of the deposited data

Results flagged for a closer look

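Among the 18 groups formed by 6 genes and 3 diets, 2 held a liver that lay farther from the others than Dixon's limit for 8 values, and chance alone gives this in about 1 of 20 groups. Hsd17b12 was 8.62 in Cis replicate 6, with the next liver at 8.31, so that this gap made up 0.59 of the range of the group, above the limit of 0.526. Hsd17b13 was 10.56 in Saturated replicate 3, with the next liver at 10.85 and a gap of 0.658 of the range. Cis replicate 6 was also the highest Cis liver for Hsd17b13, and Saturated replicate 3 was not the lowest Saturated liver for Hsd17b12.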

How the results depend on the processing

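The differences of Hsd17b11 kept their direction under every alternative run, at 0.37 to 0.45 in Trans against Saturated, 0.16 to 0.23 in Cis against Saturated and 0.19 to 0.24 in Trans against Cis, and 0 of the other 5 genes were called under any of them. Of 612 alternative values for the 6 genes, 593 kept their direction and 19 turned in sign, all for differences that were not called. With 1 liver left out, Hsd17b13 ran from -0.03 to 0.13 in Trans against Saturated, -0.09 to 0.03 in Cis against Saturated and -0.01 to 0.15 in Trans against Cis, and it was 0.01 with array weights and 0.00 with median centring in Cis against Saturated. On the same footing Hsd17b2 ran from -0.02 to 0.08 in Trans against Saturated and -0.09 to 0.02 in Cis against Saturated, Hsd17b10 from -0.10 to 0.01 in Trans against Saturated, Hsd17b12 from -0.02 to 0.06 and Hsd17b6 from -0.26 to 0.09 in Cis against Saturated. Hsd17b6 kept its direction but moved from 0.05 to 0.35 in Trans against Saturated, lowest without Saturated replicate 5, and from 0.08 to 0.45 in Trans against Cis, lowest without Cis replicate 1. The count of probe sets called moved more, and the cause was not tested. In Trans against Saturated it was 3, and became 0 with only the 2 diets compared, 5 with a mean signal over 20 only, 1 with median centring, 0 with the post hoc test of the methods, 0 without the 2 livers of lowest correlation (a choice made after seeing the data) and 1 to 16 with 1 liver left out, 16 without Saturated replicate 2. In Cis against Saturated it was 0, and 0 to 3 with 1 liver left out, 3 without Saturated replicate 2. In Trans against Cis it was 1, and became 0 with only the 2 diets, the signal filter, the post hoc test or without the 2 livers, and 0 to 2 with 1 liver left out. Replicate numbers did not pair the livers, since 3, 1 and 3 of 8 same-numbered pairs correlated above 0.1 in the 3 comparisons and 2, 1 and 0 correlated best with their own number. The replicate block gave 5, 0 and 0 probe sets called in these comparisons and called none of the 5 genes, and under it Cidec passed (1.57, limma adjusted p = 0.0202). Among the pairs other than Hsd17b11 with Hsd17b13, 0 passed, and 0 to 2 did with 1 liver left out: Hsd17b13 with Hsd17b12 in 7 removals (r of 0.52 to 0.55, permutation, adjusted p of 0.0217 to 0.0486) and Hsd17b11 with Hsd17b6 in 1, without Saturated replicate 6 (r = 0.61, permutation, adjusted p = 0.0217), while 1 passed without the 2 end livers. Hsd17b11 with Hsd17b13 ran from -0.26 to -0.02.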

Other observations

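In the list of retinol dehydrogenases and Dhrs enzymes, an unadjusted p under 0.05 was reached by 4 genes that averaged higher and 2 that averaged lower in Cis than in Saturated livers, of which limma called 0 over all probe sets, and the examples here were chosen after their values were seen. Sdr9c7 differed by 0.39 ± 0.11 (SE), with means of 7.97 in Cis livers and 7.58 in Saturated livers, and Dhrs4 by 0.22 ± 0.07, with means of 9.32 in Cis livers and 9.11 in Saturated livers. Rdh11, a retinal reductase, differed by -0.74 ± 0.26, with means of 7.11 in Cis livers and 7.85 in Saturated livers. From the list of other steroid hormone metabolism, Hsd11b1, which regenerates active glucocorticoid in liver, differed by -0.18 ± 0.06 in Trans against Cis. Its means were 9.58 in Trans livers and 9.76 in Cis livers, and it was not called (limma, adjusted p = 0.719).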
